A study of Rattus norvegicus with 21 samples.

Results

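The collagen genes measured here are the 26 genes whose names have the form Col, a type number, a and a chain number, taken from 14506 genes with 1 symbol on the array. Of them, 25 carried such a symbol in the platform annotation, and Col18a1 was added through its probe set 10829378, which the study's own list of changed genes names. Where a gene had several probe sets, the brightest on average across the 21 arrays stood for it. By the structure of the protein, 10 genes encode fibrillar collagens, 5 were taken as the basement membrane class, and 11 belong to other families. A further 19 of 45 listed collagen genes, among them Col4a2, Col6a2, Col6a3 and Col15a1, had no probe set with a single symbol in the annotation used here and are not analysed.

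Collagens are trimers of helical chains. Fibrillar collagens assemble into the banded fibrils of connective tissue, in which type I is the main component and types III, V and XI take part in building the fibril. Type IV chains form the sheet of basement membranes. The chains of Col4a1 and Col4a2 are found in nearly all basement membranes, while those of Col4a3 and Col4a4 are limited to a few tissues such as the kidney glomerulus. In the pituitary, collagen lies around the capillaries and the cords of hormone cells, and pericytes and fibroblasts are known producers.

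The Rat Gene 1.0 ST array of Affymetrix was used on 16 pituitary lesions from MENX rats and on 5 normal pituitaries of wild-type rats. MENX rats are homozygous for a mutation of Cdkn1b (written Cdknb1 in the labels), the gene of the cell cycle inhibitor p27, and develop pituitary adenomas without treatment. Both groups had the strain label Sprague–Dawley white eye/Wistar–Kyoto. Lesions that shared a sample number were averaged, which left 9 adenoma values (by the labels, 6 from females and 3 from males, aged 7 to 12 months) beside 5 wild-type values (2 females and 3 males, all aged 6 months). The paper counts more rats than there are sample numbers and gives the rats younger ages than the labels' oldest, so whether each number is 1 animal and which ages hold is not settled. By the labels, no adenoma came from a rat as young as the wild-type rats, and genotype and age cannot be told apart. The study's methods describe the adenomas as multifocal tumours of the anterior lobe, and name both microdissection and macrodissection of the tissue, and the wild-type samples are labelled as normal pituitary. Each array measured bulk RNA, in which fewer cells of a type and less RNA per cell cannot be told apart either.

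Of the 26 genes, 7 passed the test of adenoma against wild type, which was limma on the deposited log2 values with Benjamini-Hochberg adjustment over all 29214 probe sets. Col4a1, Col18a1 and Col3a1 were higher, so that 3 of 26 genes (11.5%) rose, against 8.49% of all probe sets. Col18a1 entered through a list of genes changed in these samples, and without it 2 of 25 (8%) rose. Col4a3, Col4a4, Col11a1 and Col8a1 were lower, so that 4 of 26 (15.4%) fell, against 9.06% of all probe sets. The other 19 did not pass, and 9 genes in all had an unadjusted p below the same threshold. The median log2 fold change of the 26 genes was -0.01, beside -0.03 for all probe sets. Changes ran from -0.71 for Col11a1 to 1.02 for Col18a1. The share of changed collagen genes was near that of the array as a whole, and the changes went in both directions.

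**Figure D1:**
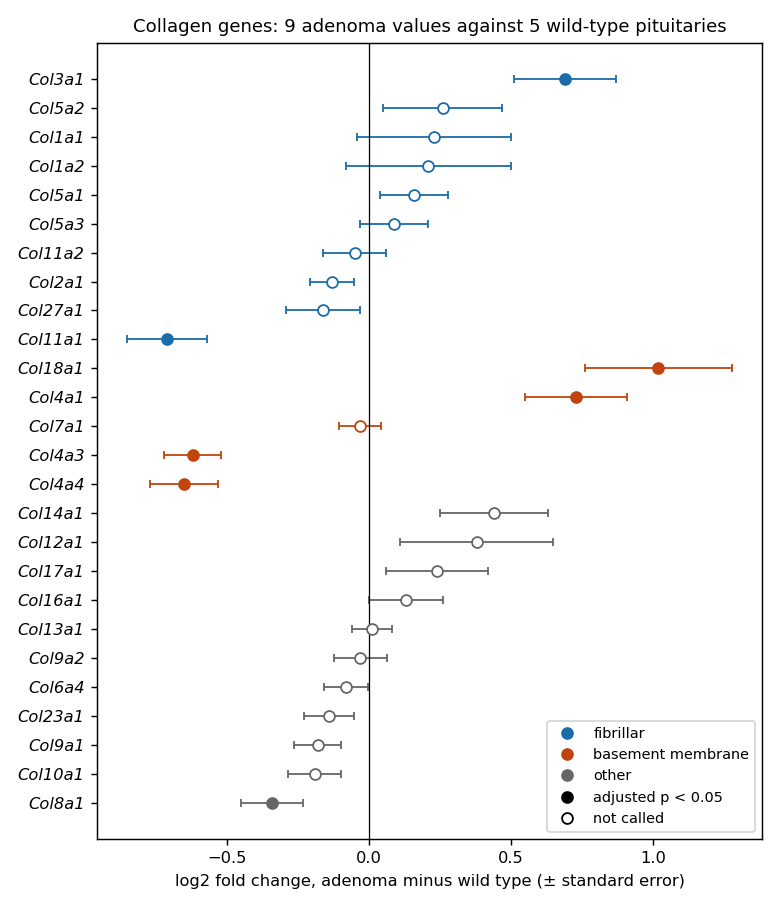
Log2 fold change of each collagen gene, adenoma minus wild type, with the standard error from limma (x axis), ordered by class: fibrillar, basement membrane and other. Filled points passed the adjusted test; they run from Col11a1 at -0.71 to Col18a1 at 1.02, and both directions occur among the basement membrane genes.

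Of the 5 basement membrane genes, 2 rose (1 of 4 without Col18a1, whose rise the choice of genes fixed), 2 fell and Col7a1, whose product anchors the epidermis to the dermis, had a log2 fold change of -0.03. Col4a1 (probe set 10789594) encodes a chain of the type IV collagen found in most basement membranes. Its log2 values in the wild-type pituitaries were 6.94, 6.97, 7.16, 7.14 and 7.20. In the adenomas the lowest was 7.40, the median 7.64 and the highest 8.40. All 9 adenoma values lay above all wild-type values. That separation was shown by 2.66% of all probe sets and by 1 of the 26 collagen genes, Col4a1. It is of values averaged per sample number, and lesions with the same number differed by up to 0.381. The change was 0.73 on the log2 scale (standard error, SE, 0.18, a 1.65-fold difference, adjusted p = 0.0130 from limma). Sample numbers in the labels begin with 08 or 09, and within those of prefix 08 the difference was 0.57 (adjusted p = 0.0737 from limma), and within prefix 09 it was 1.00 (adjusted p = 0.0129 from limma).

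Col18a1 encodes a basement membrane collagen from which endostatin is released. Because it was taken from the study's list of changed genes, made on these same samples, its direction is no independent result. Wild-type values were 6.80, 6.53, 6.69, 6.57 and 6.98. Adenoma values ran from 6.83 over a median of 7.64 to 8.71. Adenomas 4 and 6, aged 7 and 8 months, lay within the wild-type range at 6.83 and 6.97, while the other 7 were above it. On the log2 scale the difference came to 1.02 (SE 0.26, 2.03-fold, adjusted p = 0.0148 from limma), 0.83 within prefix 08 (adjusted p = 0.121 from limma) and 1.28 within prefix 09 (adjusted p = 0.0543 from limma).

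Col4a3 (probe set 10924719) and Col4a4 (probe set 10929396) encode the paired chains of the restricted type IV network. Col4a3 had wild-type values of 7.10, 7.10, 7.59, 7.74 and 7.43, and adenoma values from 6.66 over a median of 6.72 to 6.97. All 9 adenoma values lay below all wild-type values. That held for 2.16% of all probe sets, and for 2 of the 26 collagen genes, Col4a3 and Col11a1. The separation is of values averaged per sample number, and lesions with the same number differed by up to 0.622 in Col4a3. Adenomas differed from wild type by a log2 fold change of -0.62 (SE 0.10, 1.53-fold lower, adjusted p = 0.00123 from limma). Within prefix 08 it was -0.31 (adjusted p = 0.153 from limma) and within prefix 09 -0.83 (adjusted p = 0.00646 from limma).

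Col4a4 was at 6.58, 7.10, 7.48, 7.33 and 6.93 in the wild-type pituitaries. In the adenomas it ran from 6.29 over 6.41 to 6.63. In 8 adenomas it lay below every wild-type value, and adenoma 5 at 6.63 stood just above wild-type pituitary 1 at 6.58. The change was -0.65 on the log2 scale (SE 0.12, 1.57-fold lower, adjusted p = 0.00207 from limma), with -0.41 within prefix 08 (adjusted p = 0.203 from limma) and -0.81 within prefix 09 (adjusted p = 0.0118 from limma).

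**Figure D2:**
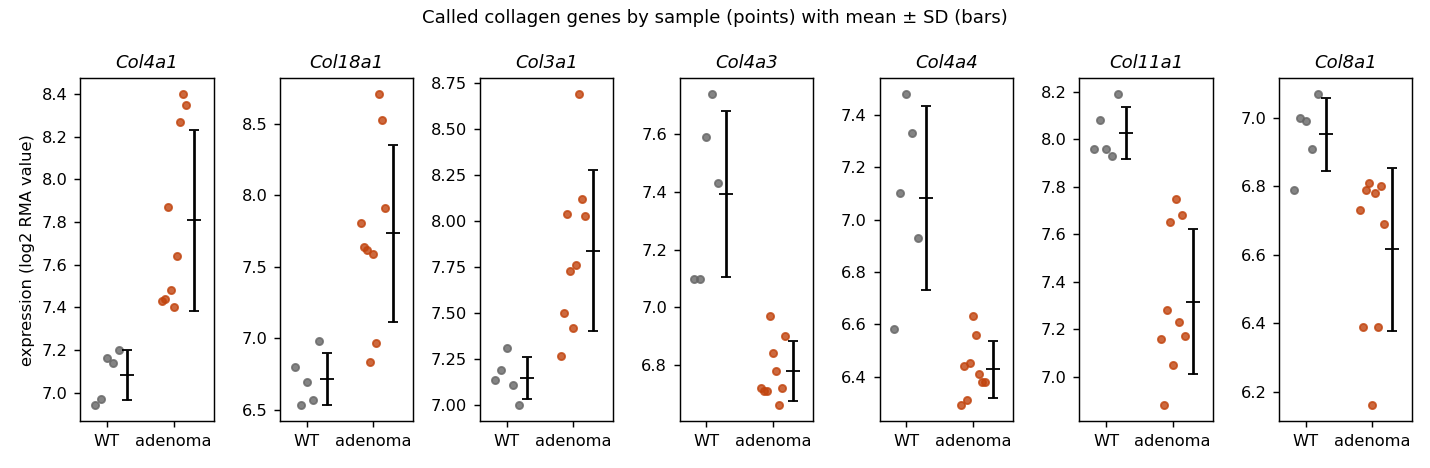
Log2 RMA values of the 7 called collagen genes, in the 5 wild-type pituitaries (WT) and the 9 adenomas (points, 1 per sample number), with group mean ± SD as bars. Every adenoma lies above the wild-type values for Col4a1 and below them for Col4a3 and Col11a1, and the other 4 genes overlap between the groups in at least 1 sample.

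Both genes sit head to head on chromosome 9, with 412 bases between their annotated ends in the RefSeq annotation of GRCr8. The 250 bases before each start site, from the same RefSeq build, are given because the 2 genes fell together and their windows share 88 bases. Col4a3 is read on the + strand at chr9:91323740-91323989 and Col4a4 on the - strand at chr9:91323578-91323827. Col4a1, which rose, is shown for contrast, at chr16:84885347-84885596 on the + strand. Its start lies close to that of Col4a2, with 76 bases between the 2 annotated genes. Capitals mark the CCAAT box and the GC box, whose core is GGGCGG, found by an exact search on both strands.
Col4a3: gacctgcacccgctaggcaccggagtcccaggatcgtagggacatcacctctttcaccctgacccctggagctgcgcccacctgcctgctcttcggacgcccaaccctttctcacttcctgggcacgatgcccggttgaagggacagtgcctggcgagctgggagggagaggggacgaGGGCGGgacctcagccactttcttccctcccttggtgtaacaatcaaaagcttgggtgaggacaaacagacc
Col4a4: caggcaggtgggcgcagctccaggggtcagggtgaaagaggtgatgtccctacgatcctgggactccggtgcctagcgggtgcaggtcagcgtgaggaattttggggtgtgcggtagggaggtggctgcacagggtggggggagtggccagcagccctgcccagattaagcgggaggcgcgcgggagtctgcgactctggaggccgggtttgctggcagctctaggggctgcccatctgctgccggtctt
Col4a1: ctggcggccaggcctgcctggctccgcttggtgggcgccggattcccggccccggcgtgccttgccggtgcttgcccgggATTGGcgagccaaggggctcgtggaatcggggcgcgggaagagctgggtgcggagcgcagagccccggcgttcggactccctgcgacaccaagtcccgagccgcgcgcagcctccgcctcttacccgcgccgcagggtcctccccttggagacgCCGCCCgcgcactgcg
The Col4a3 window holds 1 GC box core, and the Col4a1 window 1 GC box core and 1 CCAAT box. Neither motif is marked in the Col4a4 window. Of the 26 genes, 21 had a promoter entry. Of these, 7 windows held the CCAAT box, which 34.0% of 33465 rat promoters hold. The GC box core was in 12 (30.5% of all promoters), and the letters TATAAA were in 4 (12.9% of all), again on either strand. A match here is a run of letters and is not a mapped site.

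Of the 10 fibrillar genes, 1 rose, 1 fell and 8 did not pass the test. Their median log2 fold change was 0.12. Col3a1 (probe set 10923052) encodes the collagen of vessel walls and reticular fibres. Wild-type values were 7.14, 7.19, 7.31, 7.11 and 7.00. In the adenomas they ran from 7.27 over a median of 7.76 to 8.69. All but adenoma 1 lay above the wild-type values. On the log2 scale the difference came to 0.69 (SE 0.18, 1.61-fold, adjusted p = 0.0188 from limma), 0.43 within prefix 08 (adjusted p = 0.279 from limma) and 1.01 within prefix 09 (adjusted p = 0.0180 from limma).

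Col11a1 (probe set 10818502) encodes a chain of type XI collagen, a minor component of fibrils that is best known from cartilage. Wild-type values were 7.96, 8.08, 7.96, 7.93 and 8.19. Adenoma values ran from 6.88 over a median of 7.23 to 7.75 and lay below all of them. These are averages, and lesions with the same sample number differed by up to 0.713. Adenomas differed from wild type by a log2 fold change of -0.71 (SE 0.14, 1.63-fold lower, adjusted p = 0.00286 from limma). It was -0.82 within prefix 08 (adjusted p = 0.0655 from limma) and -0.57 within prefix 09 (adjusted p = 0.0581 from limma). Its partner chain Col11a2 had a log2 fold change of -0.05 (adjusted p = 0.772 from limma).

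The type I and type V chains did not pass the test. Col1a1 differed by 0.23 (SE 0.27, adjusted p = 0.596 from limma) and Col1a2 by 0.21 (SE 0.29, adjusted p = 0.653 from limma) on the log2 scale. Col5a1 differed by 0.16 (adjusted p = 0.377 from limma) and Col5a2 by 0.26 (adjusted p = 0.415 from limma). The spread between adenomas was wide in these genes. Col1a1 had wild-type values of 7.55, 7.76, 8.77, 7.99 and 7.87 and adenoma values from 7.58 over 8.02 to 9.11, and Col1a2 ran from 8.53 over 9.17 to 10.25 against wild-type values of 9.03, 8.82, 9.16, 8.78 and 9.83. Lesions with the same sample number also differed, by up to 1.45 for Col1a2 and 1.03 for Col1a1. The remaining fibrillar genes Col2a1, Col5a3, Col11a2 and Col27a1 had log2 fold changes between -0.16 and 0.09.

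Of the 11 other collagen genes, none rose and Col8a1 fell. Col8a1 (probe set 10750685) encodes a short chain collagen of vessel linings and of the eye's corneal membrane. Wild-type values were 6.79, 7.00, 6.99, 6.91 and 7.07. Adenoma values ran from 6.16 over 6.73 to 6.81, and 6 of the 9 lay below the wild-type range. The log2 fold change of -0.34 (SE 0.11, adjusted p = 0.0498 from limma) sat at the threshold, and the call was lost when any of 10 samples was left out and under 10 of 17 other settings. Col14a1 and Col12a1, which bind to the surface of fibrils, had log2 fold changes of 0.44 (adjusted p = 0.122 from limma) and 0.38 (adjusted p = 0.339 from limma). Col9a1 was at -0.18 (adjusted p = 0.139 from limma). The other 7 lay between -0.19 for Col10a1 and 0.24 for Col17a1.

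Every one of the 7 calls was lost within prefix 08 alone, which compares 5 adenomas with 2 wild-type pituitaries, and with the adenomas of 7 or 8 months alone, of which there are 2. With array weights the calls of Col4a1 (log2 fold change 0.70, adjusted p = 0.0564 from limma) and Col3a1 (0.67, adjusted p = 0.0847 from limma) were lost. Under the methods' t-test with unequal variances, on single lesions, those of Col4a3 (adjusted p = 0.059) and Col4a4 (adjusted p = 0.0873) were lost, and limma on prefix 09 alone lost Col18a1 and Col11a1. Without the adenomas of 12 months, Col18a1 differed by 0.66 (adjusted p = 0.0623 from limma), while Col4a1 (0.49), Col3a1 (0.51), Col4a3 (-0.62), Col4a4 (-0.67) and Col11a1 (-0.68) still passed.

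Several collagen genes had their highest values in the same adenomas. Adenomas 7, 8 and 9 held the 3 highest adenoma values for 10 of the 26 genes: Col1a1, Col1a2, Col4a1, Col5a1, Col5a2, Col5a3, Col12a1, Col14a1, Col16a1 and Col18a1. The share of all probe sets with these 3 adenomas on top was not counted, so the count cannot be called particular to collagens. In Col1a1 they stood at 8.85, 9.11 and 8.85, and the other 6 adenomas lay between 7.58 and 8.07. In Col12a1 they stood at 7.15, 7.17 and 6.93, and the others lay between 5.53 and 6.14. All 3 are females of 12 months with number prefix 09, while adenoma 5, a male of 12 months with prefix 08, had Col1a1 at 7.94 and Col12a1 at 5.95. Adenoma 6, a female of 8 months with prefix 09, had Col1a1 at 8.02 and Col12a1 at 5.80. Both lay within the range of the lower 6. Age, sex and prefix cannot be told apart for these 3. As a description, the fibrillar genes were taken relative to their wild-type means. Their mean was 0.37, 0.49 and 0.34 in these 3 adenomas, and between -0.31 and 0.11 in the other 6.

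**Figure D3:**
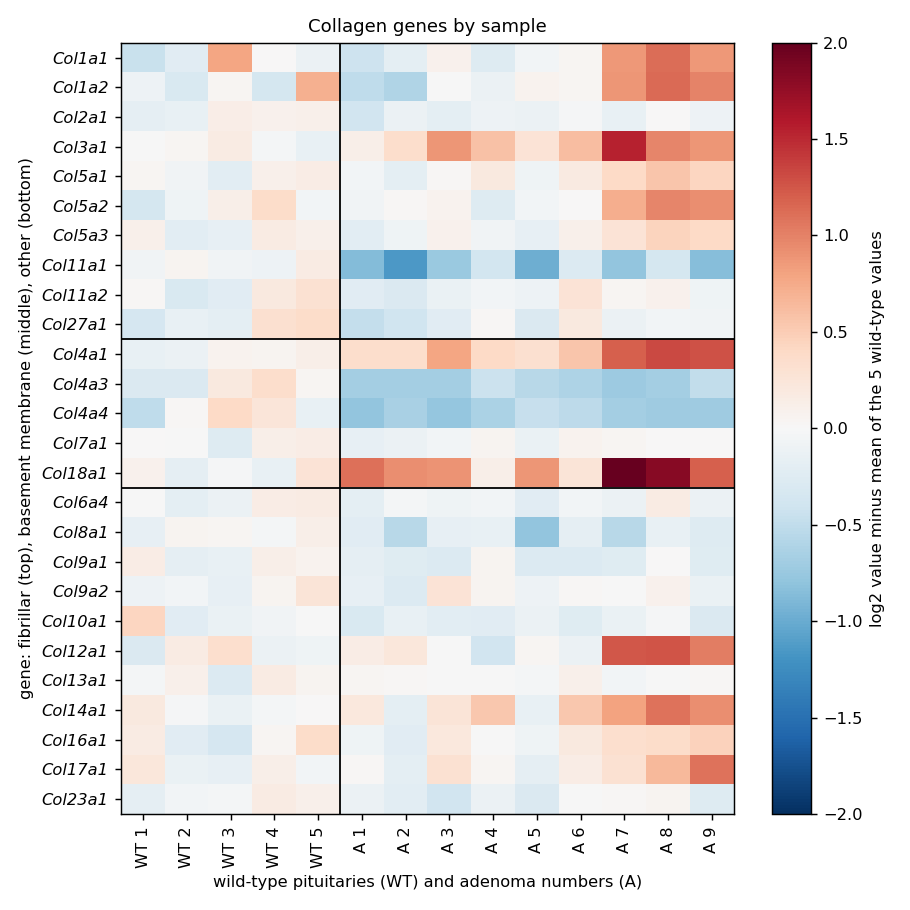
Each of the 26 collagen genes (rows, by class) in the 5 wild-type pituitaries (WT) and 9 adenomas (A), as log2 value minus the mean of the 5 wild-type values, from blue (-2) to red (2). Adenomas 7, 8 and 9 are red for Col1a1, Col1a2, Col5a2, Col12a1 and Col14a1, and the blue rows are Col11a1, Col4a3 and Col4a4.

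No collagen gene passed the test of whether the adenoma effect differs between the sexes or between prefixes. None passed the test of an age slope within the adenomas. Over all probe sets, 0% passed for sex and 0.00342% for each of prefix and age slope. For Col18a1 the slope was 0.28 per month on the log2 scale (unadjusted p = 0.000644, adjusted p = 0.137 from limma), and for Col12a1 0.25 (adjusted p = 0.226 from limma). Of the differences between prefixes, that of Col14a1 was the largest among the 26 genes, with a log2 fold change higher by 0.85 under prefix 09 (adjusted p = 0.182 from limma). Col4a3 had the smallest p-value, with a difference of -0.51 (unadjusted p = 0.00387, adjusted p = 0.174 from limma). The smallest sex p-value was that of Col4a4 (unadjusted p = 0.0168, adjusted p = 0.628 from limma).

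Chains that join in 1 molecule or fibril were compared across the 9 adenomas, in 6 measured pairs. In the pairs of types I, III and V, adenomas 7, 8 and 9 form a separate cluster in at least 1 gene, so no uncentred value over all 9 is given for these pairs. Over the other 6 adenomas, r was 0.76 for Col1a1 with Col1a2 (rho 0.60), 0.71 for Col1a1 with Col3a1 (rho 0.77), 0.24 for Col3a1 with Col5a2 (rho 0.54) and -0.42 for Col5a1 with Col5a2 (rho -0.37). Their exact permutation p-values, adjusted over the 6 pairs, ran from 0.239 to 0.658 for r and from 0.308 to 0.497 for rho. Col11a1 and Col11a2 had r = 0.81 over 9 adenomas (exact permutation p = 0.00697, adjusted 0.0203) and rho = 0.83 (exact permutation p = 0.00827, adjusted 0.0165). Without adenomas 6 and 8, the 2 farthest from the median of Col11a1, r was 0.59 (exact permutation p = 0.13 adjusted). Without adenomas 7, 8 and 9 it was 0.85 (exact permutation p = 0.0167, adjusted 0.1), and centred within prefix it was 0.80. Col4a3 and Col4a4 had r = 0.36 (exact permutation p = 0.341, adjusted 0.341) and rho = 0.33 (exact permutation p = 0.385, adjusted 0.385), and r was 0.77 without adenomas 4 and 9 (exact permutation p = 0.0603, adjusted 0.0914). All p-values are two-sided.

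**Figure D4:**
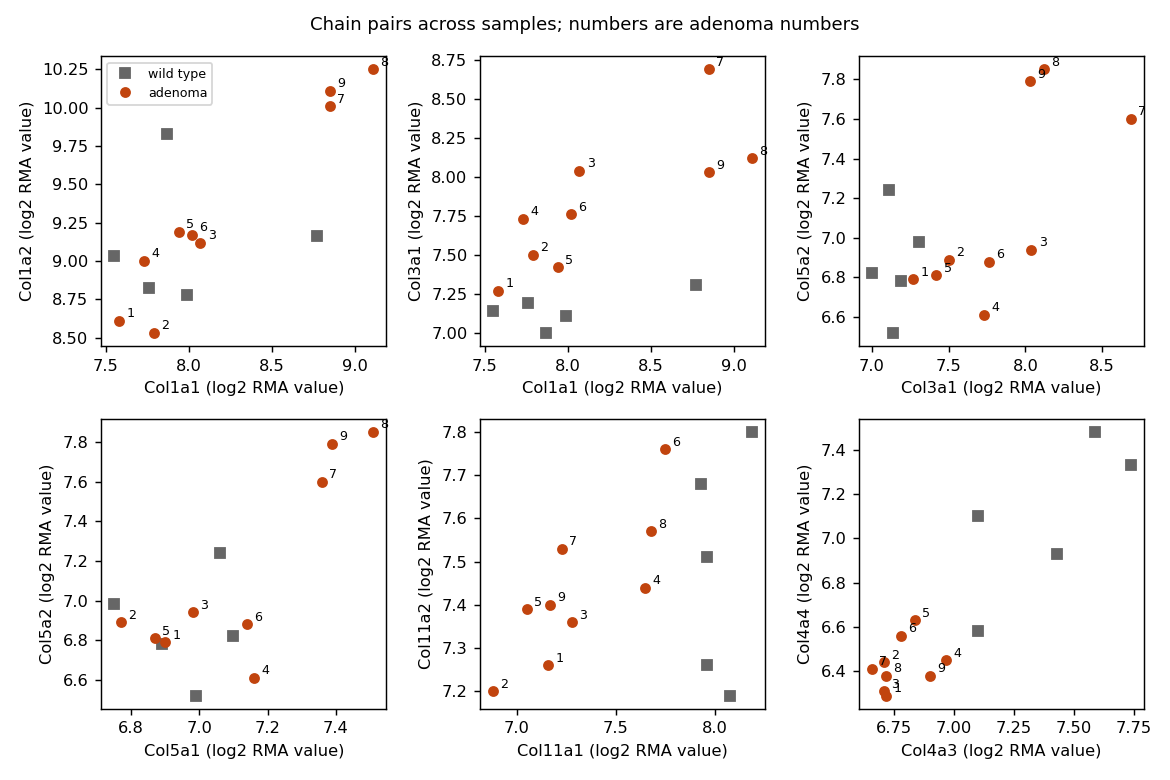
Log2 RMA values of the 6 chain pairs, 1 panel each, in the wild-type pituitaries (squares) and adenomas (circles with adenoma number). Adenomas 7, 8 and 9 stand apart at the top of the type I and type V panels, and the Col4a3 and Col4a4 panel separates adenomas at the lower left from most wild-type samples.

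Genes that act with collagens were counted from lists of known members. Of all probe sets, 8.49% were called higher and 9.06% lower, and the counts below are read beside these shares. Of 27 measured genes of collagen synthesis and crosslinking, 6 rose and 2 fell, with a median log2 fold change of 0.17 (22.2% and 7.41% of the list). Fkbp10 and Ppib, which help fold the chains, rose by 1.31 (adjusted p = 0.0444 from limma) and 1.00 (adjusted p = 0.00129 from limma). Wild-type Fkbp10 values were 9.02 and 9.72 in the 2 females and 7.27, 7.02 and 7.22 in the 3 males. Adenoma Fkbp10 values ran from 8.87 to 10.45 in females and from 8.44 to 9.62 in males. Females of both groups therefore overlapped in Fkbp10, and 1 of 9 adenomas lay above all wild-type values. Pcolce, an enhancer of procollagen cleavage, was higher by 0.74 (adjusted p = 0.0189 from limma), and Adamts2, a procollagen protease, by 0.39 (adjusted p = 0.0494 from limma). Tll1, a procollagen protease, and Plod2, a lysyl hydroxylase of crosslinking, fell by 1.54 (adjusted p = 0.000104 from limma) and 1.25 (adjusted p = 0.00379 from limma). The number that rose in this list ran from 1 to 7 when single samples were left out: it was 1 without wild-type pituitary 4, 2 without wild-type pituitary 3, and 3 without adenoma 1, 3, 8 or 9. With sex as a covariate 3 genes of this list rose and 3 fell. Of 9 collagen receptors, none rose and 2 fell, the integrin Itga2 (-0.46) and the receptor kinase Ddr1 (-0.45), or 22.2% of the list. Leaving out wild-type sample 1, 3 or 4, or adenoma 7, left 1 receptor that fell. Of 11 basement membrane partners, 2 rose, the linker Nid2 (0.73) and the collagen-binding Sparc (0.83), and 2 fell, the laminin chains Lama3 (-1.78) and Lama5 (-0.49), each count being 18.2% of the list. The number of partners that fell was 1 on leaving out wild-type sample 2, 3 or 4, or adenoma 1, 2, 3, 5 or 7. It was 3 without wild-type sample 1 or 5, and the number that rose was 1 without wild-type pituitary 4. Of 10 small leucine-rich proteoglycans, which bind fibrils, 2 fell (20.0%), Ogn (-1.57) and Prelp (-1.19).

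Markers of cell types also differed between the groups, and their part in the collagen results was not tested. Of 12 pericyte and smooth muscle markers, 9 rose and none fell, among them Des (1.52), Rgs5 (1.12), Mcam (1.10) and Abcc9 (0.97), and the mean log2 level of the list ran from 6.68 to 7.24 in wild type and from 7.18 to 7.86 in the adenomas. Of 11 macrophage markers, 8 rose, with mean levels of 6.33 to 6.89 and of 6.88 to 7.78. With prefix 08 alone 1 pericyte and 1 macrophage marker rose, and with adenomas of 7 or 8 months alone 1 and 0. Over all probe sets 363 and 119 rose in these subsets, against 2479 in the main fit. For the pericyte list 5 rose with the replicate block, and 7 rose and 1 fell under the t-test with unequal variances. Of 13 endothelial markers, 3 rose, Flt1 (0.69), Esam (0.55) and Eng (0.50), with mean levels of 6.94 to 7.39 against 6.79 to 7.64. The number of endothelial markers that rose ran from 2 to 4 with single samples left out. It was 5 with quantile normalization and 0 with adenomas of 7 or 8 months alone. Of 11 fibroblast markers, 2 fell, Pdgfra (-0.66) and Fbln1 (-0.67), with mean levels of 6.06 to 6.49 against 5.62 to 6.29, and 1 fell without wild-type pituitary 3. None fell under the t-test with unequal variances, with either prefix alone or with adenomas of 7 or 8 months alone. With the replicate block 1 fibroblast marker fell and 1 rose. The fibroblast marker with the largest difference went the other way: Dpt, a matrix protein that binds collagen, had a log2 fold change of 1.06 (adjusted p = 0.0700 from limma), with 6 of 9 adenomas above all wild-type values. On leaving out wild-type sample 1 or adenoma 8, and with lesions as separate samples, 1 fibroblast marker was called higher. Of 9 cartilage markers, 2 rose, Matn1 by 4.62 (adjusted p = 0.000109 from limma) and Acan by 0.29 (adjusted p = 0.0462 from limma). This count was 1 on leaving out wild-type sample 1, 3, 4 or 5, or adenoma 1, 2, 4, 5, 6, 8 or 9. Of 7 posterior lobe glia markers, 3 fell. Of those not called, Rax (-0.13) and Mbp (-0.26) were lower, while Sox10 (0.30) and Gfap (0.24) were higher. All 9 adenomas had a lower mean level of the list (6.22 to 6.64) than every wild-type pituitary (6.75 to 6.92). The count that fell was 2 without wild-type sample 1 or 5, or adenoma 1, 2, 3, 5, 7, 8 or 9. With prefix as a block, prefix 09 alone, centring, quantile normalization or the t-test with unequal variances, 1 marker was called higher. Among 4 gonadotroph markers, Cga and Gnrhr rose and Lhb and Fshb fell, and 1 fell without wild-type pituitary 3. No marker list was at 0, since these arrays report a background value for every probe set, and 3 of the 11 fibroblast markers and 2 of the 12 pericyte markers were below the array median in all samples.

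Col6a1, a chain of the beaded filaments of type VI collagen, has no single symbol in the annotation but is named by the study's list of changed genes, so it stood outside the 26 genes and its direction is no independent result. Its wild-type values were 7.28, 7.26, 7.16, 7.24 and 7.12, and its adenoma values ran from 7.49 over 8.10 to 8.53, all above them. The change was 0.93 on the log2 scale (SE 0.14, 1.90-fold, adjusted p = 0.000654 from limma).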

How the data were processed

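Gene expression in 16 MENX pituitary lesions and 5 wild-type pituitaries was read with the Affymetrix array Rat Gene 1.0 ST. The authors processed the arrays in Affymetrix Expression Console with RMA and deposited log2 values, 1 per probe set, and these were used as deposited; no program version is given in the sources used here. RMA equalises the arrays' distributions, so a shift common to most genes would not be seen. The array medians ran from 6.36 to 6.53. Arrays have no read depth, and their number limits the precision.

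Of 29214 probe sets, 15310 have 1 symbol, 323 several and 13581 none. Lesions sharing a sample number were averaged, giving 9 adenoma and 5 wild-type values. limma 3.58.1 in R 4.3.3 fitted the group as the only term (12 residual and 3.212 prior degrees of freedom), with Benjamini-Hochberg adjustment over all probe sets, and a gene was called at an adjusted p under 0.05. Sex and number prefix were tested as interactions and age as a slope over the adenomas. The fits were tested on simulated data. Chain pairs were tested in Python 3.11.15 with scipy 1.17.1 by exact permutation. Promoter windows came from RefSeq (GRCr8).

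The genes and lists were chosen with earlier results of these data known. Named in the text are all called genes, with full statistics above 0.5 on the log2 scale, their chain partners, the type I, III, IV, V, VI and XVIII chains measured, and up to 6 called genes per list (4 for markers). The number prefix is the start of the sample number and its meaning is not stated. Alternatives tried were lesions as separate samples, the t-test of the methods, prefix, sex or replicate number as a term, subsets by prefix and age, filters, centring, quantile normalization, array weights, other thresholds and each sample left out. The adenomas under 12 months alone and the prefix interaction were added after seeing the data.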

Additional observations from a re-analysis of the deposited data

Results flagged for a closer look

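Col6a4, a type VI collagen gene, was highest in adenoma 8, at 6.41 on the log2 scale. The nearest of the other 8 adenoma values was 6.21, and the gap was 0.52 of the whole range of the group. Of 52 groups tested in this way 1 stood out, and chance gives about 1 in 20.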

How the results depend on the processing

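Low signal may limit Col10a1 (group means 5.97 and 5.78), Col12a1 (5.91 and 6.29), Col14a1 (5.62 and 6.06) and Col6a4 (6.25 and 6.17). Their group means lay below the lowest array median of 6.36, but above 4.98, the 25th percentile of probe set means. Single values reached higher, as for Col12a1 in adenomas 7, 8 and 9 (7.15, 7.17 and 6.93). The count of collagen genes that rose was 3, and it was 0 with prefix 08 alone, adenomas of 7 or 8 months alone or an adjusted p under 0.01, and 1 with array weights or a fold over 2. The count that fell was 4, and it was 2 with the methods' t-test with unequal variances or prefix 09 alone, and 0 with prefix 08 alone, adenomas of 7 or 8 months alone or a fold over 2.

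For fibrillar genes, 0 rose with prefix 08 alone, the replicate block, adenomas of 7 or 8 months alone, array weights, a fold over 2 or an adjusted p under 0.01, and 0 fell with prefix 08 or 09 alone, adenomas of 7 or 8 months alone or a fold over 2, while 2 fell with the replicate block. For basement membrane genes, 0 rose with prefix 08 alone, adenomas of 7 or 8 months alone or an adjusted p under 0.01, and 1 rose with prefix 09 alone, adenomas under 12 months alone, array weights or a fold over 2. In that class 0 fell with the methods' t-test with unequal variances, prefix 08 alone, adenomas of 7 or 8 months alone or a fold over 2. For the other collagens, 1 rose with number prefix as a block or prefix 09 alone, 2 fell with lesions as independent samples or the methods' t-test with equal variances, and 0 fell with the prefix block, prefix 08 or 09 alone, the replicate block, adenomas of 7 or 8 months or under 12 months alone, centring, quantile normalization, array weights, the variance trend, a fold over 2 or an adjusted p under 0.01. Leaving out single samples gave 0 to 1 of these lower calls.

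Signs turned for genes that had not passed. Col1a1 was at -0.31 with the replicate block, -0.11 with adenomas of 7 or 8 months and -0.15 with those under 12 months. Col1a2 was at -0.03 with prefix 08 and -0.50 with the replicate block (adjusted p = 0.0396 from limma). It was at -0.04 with adenomas of 7 or 8 months and -0.24 with those under 12 months. The replicate block takes single lesions as independent, so its p-values do not allow for lesions that share a sample number. Col5a1 was at -0.00 with prefix 08 and -0.09 with the replicate block. Col5a2 was at -0.08 with the replicate block, -0.12 with adenomas of 7 or 8 months and -0.04 with those under 12 months. Col11a2 was at 0.11 with adenomas of 7 or 8 months, and from -0.13 to 0.02 when single samples were left out. The cause was not tested.

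Without the 2 farthest adenomas r was 0.933 for Col1a1 with Col1a2 (adjusted exact permutation p = 0.0512), 0.928 for Col1a1 with Col3a1 (adjusted exact permutation p = 0.0512), 0.788 for Col5a1 with Col5a2 and 0.594 for Col11a1 with Col11a2. In the type I pairs adenoma 7 of the separate cluster of adenomas 7, 8 and 9 remained, and in the type V pair adenomas 7 and 9, so these values do not test the relation outside that cluster (-0.42 for the type V pair without all 3). Centred within prefix, r was 0.58 for Col1a1 with Col3a1, 0.381 for Col3a1 with Col5a2 and 0.464 for Col5a1 with Col5a2, beside 0.908 for Col1a1 with Col1a2, 0.803 for Col11a1 with Col11a2 and 0.366 for Col4a3 with Col4a4. Centring kept all 9 adenomas, and adenoma 6 shares prefix 09 with adenomas 7, 8 and 9. The cluster therefore remained, and for types I, III and V the centred values do not test the relation outside it. Without adenomas 7, 8 and 9, r was 0.76 for Col1a1 with Col1a2 (adjusted exact permutation p = 0.239). Samples with the same replicate number correlated between -0.053 and 0.203 in their deviations from the group means. Samples with different numbers were not compared, so this does not settle whether the numbers pair them. The replicate block uses only numbers shared by both groups and takes single lesions as independent. The adenoma lesions with those numbers all have prefix 08. Under the block Col3a1 was at 0.27 (adjusted p = 0.13 from limma) against 0.69, and its call was lost.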
